A study of Mus musculus with 12 samples.

Results

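The genes described here are the 10 MHC class II genes named H2-Aa, H2-Ab1, H2-Eb1, Cd74, Ciita, H2-DMa, H2-DMb1, H2-DMb2, H2-Oa and H2-Ob. They were chosen by name from the 35434 genes of the deposited count table, and all 10 passed the filter on low counts that left 15269 genes for testing. They were measured by bulk RNA sequencing in 12 tumours of 4T1, a mouse mammary carcinoma line of BALB/c origin, each grown under the skin of a different female BALB/c mouse aged 6 to 8 weeks. Group HI lived in a hypobaric chamber set to 3500 m and received IOX2 at 10 mg/kg, and group HC lived in the chamber and received vehicle. Group MI lived at ambient altitude, about 1500 m, and received the same dose of IOX2, and group MC lived at ambient altitude and received vehicle, with 3 tumours in each group. Injections ran for 10 days from day 9 after inoculation, and tumours were taken on study day 22. IOX2 inhibits PHD2, the prolyl hydroxylase that marks hypoxia-inducible factors for destruction. As described, chamber housing and altitude cannot be told apart, and 1 tumour line is the only model.

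MHC class II molecules show peptides from swallowed proteins to CD4 T cells, and in most tissues only dendritic cells, macrophages and B cells make them steadily. H2-Aa and H2-Ab1 encode the 2 chains of I-A, and H2-Eb1 encodes the beta chain of I-E. Cd74 encodes the invariant chain, which fills the peptide groove during transport. H2-DMa, H2-DMb1 and H2-DMb2 encode the peptide exchanger H2-M, and H2-Oa and H2-Ob encode H2-O, an inhibitor of H2-M that is typical of B cells. Ciita encodes the coactivator that switches class II genes on, by docking on factors bound to the X and Y boxes of their promoters. Interferon gamma induces it in cells that otherwise lack class II.

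To look for these boxes, the stretch from 130 to 31 bases before the annotated start is shown for 6 of the members on chromosome 17. The sequence is RefSeq's for C57BL/6J (build GRCm38.p6). The submitters' notes name GRCm39 for the counts. Capitals mark matches to the X box and to the Y box, with both strands searched. The X box was read as CCTAG, any 2 bases, AC, any base and GATG, with at most 2 mismatches in its 11 fixed letters, and the Y box as ATTGG, which is CCAAT where it lies on the other strand. The 2 motifs did not overlap in any of these stretches.
H2-Aa, minus strand, chr17:34287854-34287953: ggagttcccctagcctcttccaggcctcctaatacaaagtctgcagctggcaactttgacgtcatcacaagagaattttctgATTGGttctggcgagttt
H2-Eb1, plus strand, chr17:34305737-34305836: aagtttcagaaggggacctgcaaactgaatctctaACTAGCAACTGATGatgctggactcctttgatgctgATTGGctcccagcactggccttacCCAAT
H2-DMb1, plus strand, chr17:34153061-34153160: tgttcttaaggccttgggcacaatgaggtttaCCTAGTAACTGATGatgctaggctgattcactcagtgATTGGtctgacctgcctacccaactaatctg
H2-DMb2, plus strand, chr17:34145119-34145218: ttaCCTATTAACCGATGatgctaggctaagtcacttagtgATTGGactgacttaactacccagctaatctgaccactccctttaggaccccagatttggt
H2-Oa, plus strand, chr17:34092249-34092348: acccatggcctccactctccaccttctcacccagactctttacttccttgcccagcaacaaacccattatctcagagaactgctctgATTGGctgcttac
H2-Ob, plus strand, chr17:34238775-34238874: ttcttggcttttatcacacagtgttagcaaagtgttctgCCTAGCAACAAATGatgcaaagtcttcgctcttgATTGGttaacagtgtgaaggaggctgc

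The table of promoters held 8 entries for 7 of the members. H2-DMb1 matched the X box with 0 mismatches, and H2-Eb1, H2-DMb2 and H2-Ob matched it with 1 mismatch each. In these 4 genes a Y box followed on the same strand after 20 to 23 bases, and H2-Eb1 held another on the opposite strand. An X box within 1 mismatch stood in 0.469% of all 32851 promoter entries, one within 2 mismatches in 6.42%, and a Y box in 37.4%. The H2-Aa and H2-Oa stretches held the Y box without an X box match at this limit. Of the 2 start sites of H2-DMa, one held neither motif and the other held a Y box 198 bases before its start. A match is a run of letters and not a measured binding site.

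**Figure D1:**
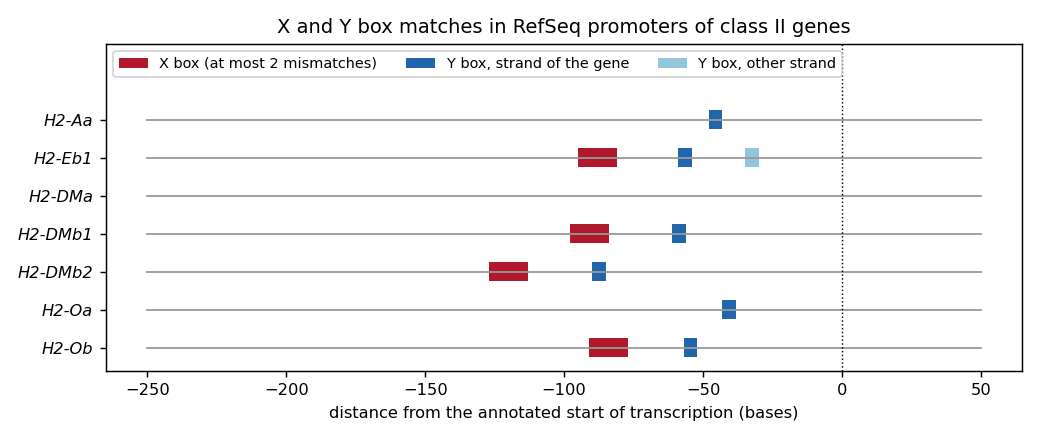
Positions of X box (red) and Y box matches (dark blue on the strand of the gene, light blue on the other) in RefSeq promoter sequence from 250 bases before to 50 bases after the annotated start (dotted line), for 7 class II genes, with the first of the 2 entries of H2-DMa. H2-Eb1, H2-DMb1, H2-DMb2 and H2-Ob carry an X box followed by a Y box, while H2-Aa and H2-Oa carry a Y box match alone.

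Library totals ran from 31661685 counts in HC1 to 40019343 in MI2, so a count of 0 allowed at most 0.0728 to 0.0917 CPM (TMM-scaled counts per 1e6 counts, with factors of 0.925 to 1.03), for counting error only. The 10 class II genes together took 0.3225% to 0.4978% of all counts. The carcinoma marker Epcam was at 342 to 605 CPM in every library. Library MI1 stood apart in lymphocyte genes: the summed level of 12 B cell markers was 196.8 CPM there and 3.82 to 8.74 CPM in the other 11 libraries. Changes of H2-Oa, H2-Ob, H2-DMb2, H2-Eb2, Cd4, Ccr7 and Cd40 that include MI1 are also given without it.

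Levels of different genes are compared in FPKM, which divides by gene length. Cd74 was the most abundant, with a mean of 1706 ± 262 FPKM (SD over 12 libraries). H2-Aa followed at 377 ± 61.1 FPKM, H2-Ab1 at 337 ± 61.8 FPKM and H2-Eb1 at 292 ± 49.4 FPKM. The peptide exchanger genes stood lower, H2-DMb2 at 63.8 ± 15.3 FPKM, H2-DMb1 at 35.2 ± 4.48 FPKM and H2-DMa at 16.6 ± 2.74 FPKM. The value of H2-DMa was divided by a length of 8325 bases, far more than the 1284 and 1411 bases of its partner genes, and its exons share 360 bases with the opposite-strand gene Brd2 in GENCODE M21, so its place in the order is uncertain.

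Ciita was at 9.17 ± 2.60 FPKM, and its exons share 329 bases with the opposite-strand gene Dexi. The H2-O genes were the lowest, H2-Oa at 2.55 ± 1.26 FPKM and H2-Ob with a median of 0.156 FPKM. Each gene was above the next of this order in 12 of 12 libraries. The means of H2-Aa and H2-Ab1 lay within 1 SD of each other over the libraries, as did those of H2-Ab1 and H2-Eb1.

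**Figure D2:**
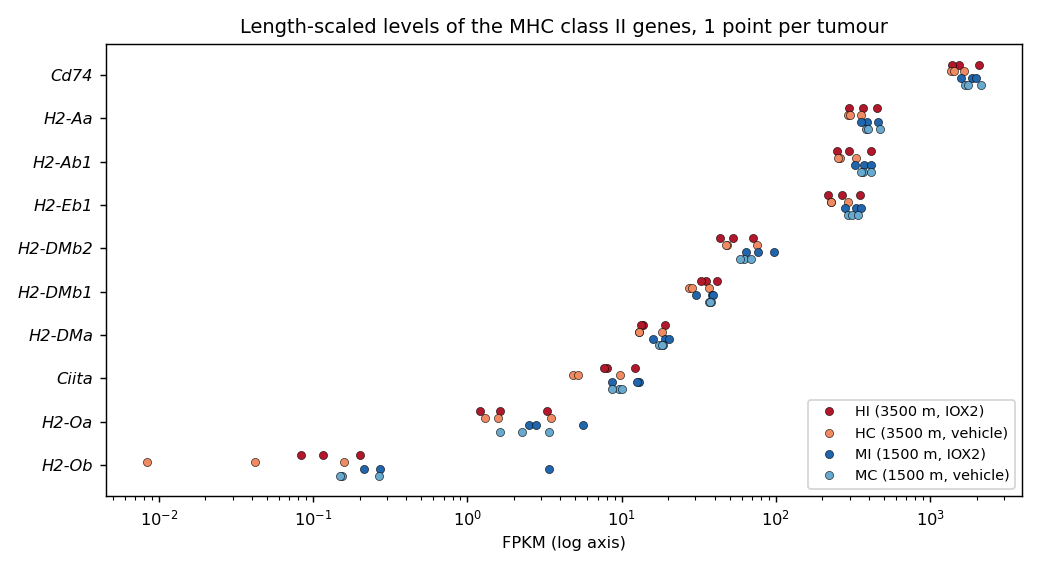
FPKM on a log axis for the 10 class II genes, 1 point per tumour, coloured by group and sorted by mean. Cd74 averages 1706 FPKM and Ciita 9.17 FPKM, and the H2-Ob point far to the right is library MI1.

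With vehicle, all 10 class II genes had a lower mean in chamber tumours than in ambient tumours, against 52.2% of all genes with a log2 change below 0, but no gene passed the test. H2-Oa alone had a log2 change above 0 when HC1 or MC2 was left out. H2-Aa, an I-A chain gene, had 321.5, 399.9 and 349 CPM in HC1 to HC3, against 427, 445 and 536 CPM in MC1 to MC3. H2-Ab1, its partner, had 299.9, 394 and 308 CPM in HC, against 427, 425 and 497 CPM in MC. For both genes every HC tumour was below every MC tumour, with HC2 the nearest to MC.

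The log2 change of H2-Aa in HC against MC was -0.40 (SE 0.15), with an adjusted p = 0.333 in edgeR. That of H2-Ab1 was -0.43 (SE 0.17), with an adjusted p = 0.344 in edgeR. These 2 genes were those whose groups did not overlap, 2 of 10, against 21.7% of all genes tested (11.4% in this direction). They were also the 2 of 10 with an unadjusted p under 0.05, against 12.0% of all genes. At an adjusted p under 0.05, edgeR called 0 of 10 members and 0% of all genes, and DESeq2 and limma on FPKM called 0 of 10 members too. With the replicate number as a block, 13 genes of all those tested were called, 0 of them members. In bulk tumour RNA, fewer presenting cells and less class II RNA per cell cannot be told apart.

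Ciita, the master switch, had 45.6, 95.05 and 51.5 CPM in HC, against 92.6, 97.8 and 85.3 CPM in MC. HC2 lay inside the MC range, and the other HC tumours were well below it (log2 change -0.52, SE 0.26, adjusted p = 0.451 in edgeR). Without HC1 the log2 change of Ciita was -0.33, and without HC2 it was -0.92. Cd74, the invariant chain gene, had 1882, 2357 and 2045 CPM in HC, against 2330, 2505 and 3036 CPM in MC. Here too HC2 was inside the MC range and the other 2 tumours below it.

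HC1 and HC3 were below all MC tumours for 10 of 10 members, while HC2 was below them for 2, above them for H2-DMb2 and H2-Oa, and within their range for 6. The median log2 change over the 10 members was -0.33, beside -0.01 over all genes tested. The range was -0.15 for H2-DMb2 to -1.42 for H2-Ob. Without HC1 the members' median was -0.26, and without HC2 it was -0.49. HC1 was also the library with the fewest counts.

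**Figure D3:**
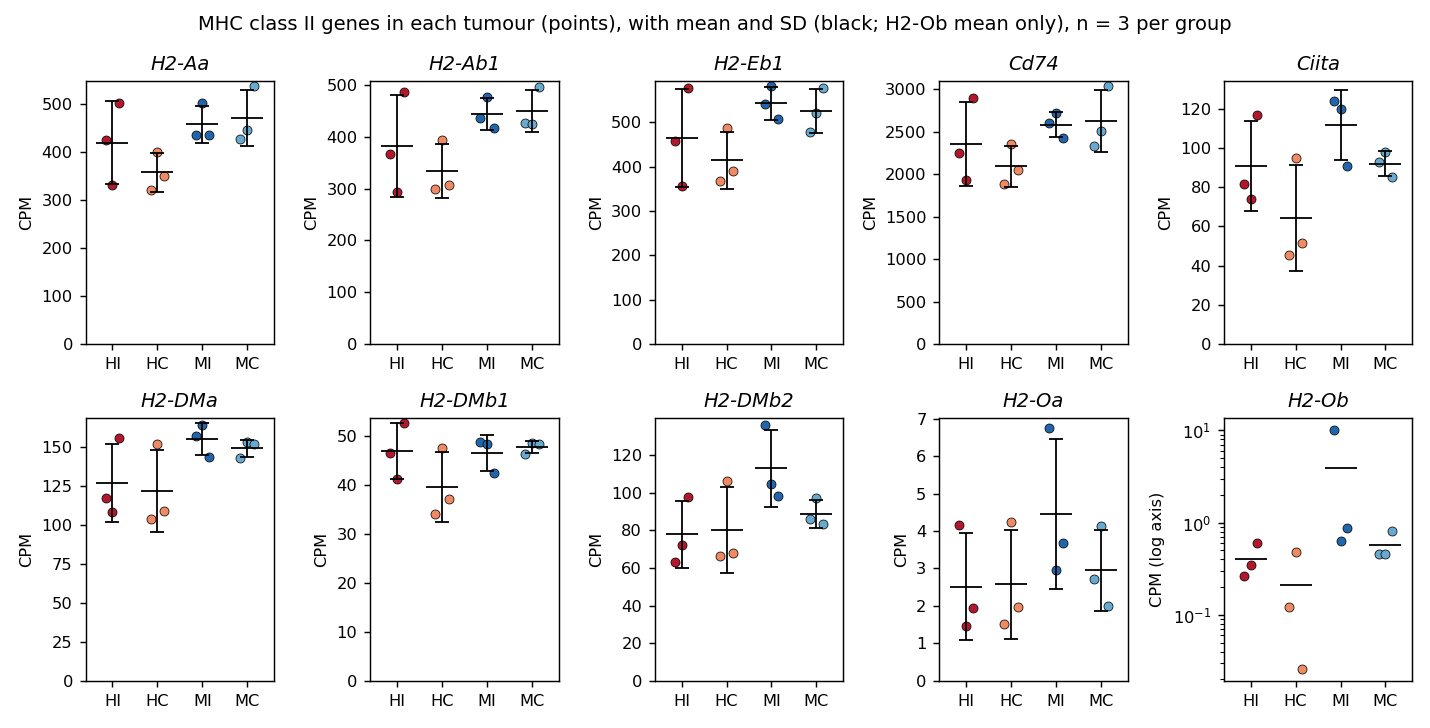
CPM of each class II gene in every tumour (points), by group, with the mean and SD of 3 tumours in black, and for H2-Ob the mean alone on a log axis. HC1, HC3 and HI2 lie low for most genes, HC2 and HI3 lie near the ambient tumours, and the top point of H2-Ob in MI is library MI1.

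With IOX2, 9 of 10 class II genes had a lower mean in chamber tumours than in ambient tumours, against 52.2% of all genes with a log2 change below 0, and again no member passed in edgeR. H2-DMb2, a beta chain gene of H2-M, had 63.4, 72.4 and 97.8 CPM in HI1 to HI3, against 135.9, 104.7 and 97.98 CPM in MI1 to MI3. The highest HI tumour and the lowest MI tumour differed by less than 1 CPM, so the groups were barely apart. The log2 change of H2-DMb2 in HI against MI was -0.54 (SE 0.21, adjusted p = 0.279 in edgeR), and without MI1 it was -0.39.

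H2-Ob, the H2-O beta chain gene, had 0.261, 0.345 and 0.597 CPM in HI, against 10.2, 0.631 and 0.884 CPM in MI. The groups did not overlap, and MI1 was far above every other tumour. The log2 change of H2-Ob was -3.27 (SE 1.05, adjusted p = 0.238 in edgeR), and without MI1 it was -0.92 (adjusted p = 0.621 in edgeR). DESeq2 called it with MI1 in place (adjusted p = 0.0389), and over the other settings and left-out libraries the adjusted p ran from 0.055 to 0.621.

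The count of members whose groups did not overlap was 2 of 10, against 14.6% of all genes (6.61% in this direction). At an unadjusted p under 0.05 there were also 2 of 10, against 15.2% of all genes. edgeR called 0 of 10 members and 0% of all genes at an adjusted p under 0.05, DESeq2 called 1 member and limma on FPKM called 0. HI2 was below all MI tumours for 10 of 10 members and HI1 for 8, whereas HI3 was below them for 3 and above them for H2-Ab1, Cd74 and H2-DMb1. The members' median log2 change was -0.26, beside -0.01 over all genes. It was -0.12 without HI2 and -0.44 without HI3.

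H2-Aa had 425, 330 and 501 CPM in HI, against 435, 501.5 and 435 CPM in MI, and the groups overlapped over most of their range (log2 change -0.13, SE 0.15). H2-DMb1 was at 46.9 ± 5.72 CPM in HI and 46.5 ± 3.65 CPM in MI (SD, n = 3 each), with a log2 change of 0.01 (SE 0.13), whose sign turned in 5 of 20 other settings.

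With IOX2 at ambient altitude, the most abundant class II genes lay close to their vehicle levels. Cd74 was at 2580 ± 147 CPM in MI and 2624 ± 368 CPM in MC (SD, n = 3 each), a log2 change of -0.02 (SE 0.15). H2-Aa was at 457 ± 38.5 CPM in MI and 469.5 ± 58.3 CPM in MC, a log2 change of -0.04 (SE 0.15). The groups overlapped for both genes. Of the 10 members, 6 had a higher and 4 a lower mean log2 change, with a median of 0.05, beside 0.01 over all genes, of which 49.2% had a log2 change below 0. The signs of H2-Aa, H2-Ab1, H2-Eb1, Cd74 and H2-DMb1 were not the same in every setting.

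H2-DMb2 was the member whose groups did not overlap, with 135.9, 104.7 and 97.98 CPM in MI1 to MI3, against 86.03, 96.97 and 83.2 CPM in MC1 to MC3. All MI tumours were above all MC tumours, MI3 by a small margin (log2 change 0.35, SE 0.21, adjusted p = 0.506 in edgeR). Without MI1 the log2 change of H2-DMb2 was 0.21 (adjusted p = 0.824 in edgeR). That is 1 of 10 members, against 11.1% of all genes (4.75% in this direction). H2-Ob had 10.2, 0.631 and 0.884 CPM in MI, against 0.453, 0.454 and 0.814 CPM in MC, and MI2 lay inside the MC range. Its log2 change was 2.76 (SE 1.01, adjusted p = 0.492 in edgeR), and without MI1 it was 0.41 (adjusted p = 0.907 in edgeR). It was the 1 of 10 members at an unadjusted p under 0.05, against 9.39% of all genes. In edgeR 0 of 10 members and 0.0262% of all genes were called, and DESeq2 and limma on FPKM called 0 members.

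IOX2 in the chamber went with a higher mean of 8 of 10 members, and for 0 of 10 did the groups stand apart, against 11.4% of all genes. Over all genes 49.6% had a log2 change below 0. Ciita had 81.4, 73.7 and 116.7 CPM in HI, against 45.6, 95.05 and 51.5 CPM in HC. HC2 lay among the HI tumours (log2 change 0.50, SE 0.26, adjusted p = 0.964 in edgeR). Without HC1, HC2 or HI3 the log2 change of Ciita was 0.31, 0.90 or 0.28. The members' median log2 change was 0.18, beside 0.00 over all genes, and it was 0.04 without HI3, 0.32 without HI2 and 0.33 without HC2. HI3 was above all HC tumours for 8 of 10 members, HI1 for 1 and HI2 for 0. At an unadjusted p under 0.05 there were 0 of 10 members, against 4.85% of all genes, and edgeR, DESeq2 and limma on FPKM called 0 members. edgeR called 0% of all genes.

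The IOX2 effect was not shown to differ between the altitudes for any member. For the interaction edgeR called 0 of 10 members and 0% of all genes, with 0 of 10 members at an unadjusted p under 0.05 against 8.21% of all genes. DESeq2 and limma on FPKM called 0 members. Of the members 3 had an interaction below 0, against 52.4% of all genes. The smallest adjusted p of a member was 0.646 in edgeR.

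Averaged over treatment, 10 of 10 members had a log2 change below 0 in chamber against ambient tumours, with a median log2 change of -0.31, beside -0.02 over all genes, of which 53.8% were below 0. The log2 changes were -0.26 for H2-Aa, -0.32 for H2-Ab1, -0.28 for H2-Eb1, -0.23 for Cd74 and -0.41 for Ciita, with SE of 0.11 to 0.18. Those of the H2-M genes were -0.29 for H2-DMa, -0.13 for H2-DMb1 and -0.34 for H2-DMb2. Without MI1 that of H2-DMb2 was -0.27 (adjusted p = 0.373 in edgeR). H2-Oa was at -0.51, and at -0.30 without MI1. H2-Ob was at -2.34, and at -1.17 without MI1 (adjusted p = 0.293 in edgeR).

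In this average 7 of 10 members had an unadjusted p under 0.05, against 17.3% of all genes. The members share their tumours, and the main ones kept nearly fixed proportions within a tumour (below). Such counts of members are therefore not counts of independent genes. Adjusted over all genes, edgeR called 0 of 10 members and 0.498% of all genes. The smallest adjusted p of a member was 0.16 in edgeR, for H2-Ob. DESeq2 called 1 member, H2-Ob (adjusted p = 0.0226, with MI1 in place), and limma on FPKM called 0. All 10 members stayed below 0 without any 1 library, the median running from -0.40 without HI3 to -0.24 without HI2. This average is made of the HC against MC and HI against MI comparisons and adds no tumours to them. Averaged over altitude, IOX2 gave 10 of 10 members a log2 change above 0 with a median of 0.10, while 48.3% of all genes were below 0. Without HI3, 3 of 10 members were below 0 and the median was 0.04, without HI1 1 was below 0, and without HC2 the median was 0.18, without HI2 0.17 and without HC1 0.06. There edgeR called 0 members and 0.0393% of all genes, with 1 of 10 members at an unadjusted p under 0.05 against 5.12% of all genes, and DESeq2 and limma on FPKM called 0 members.

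**Figure D4:**
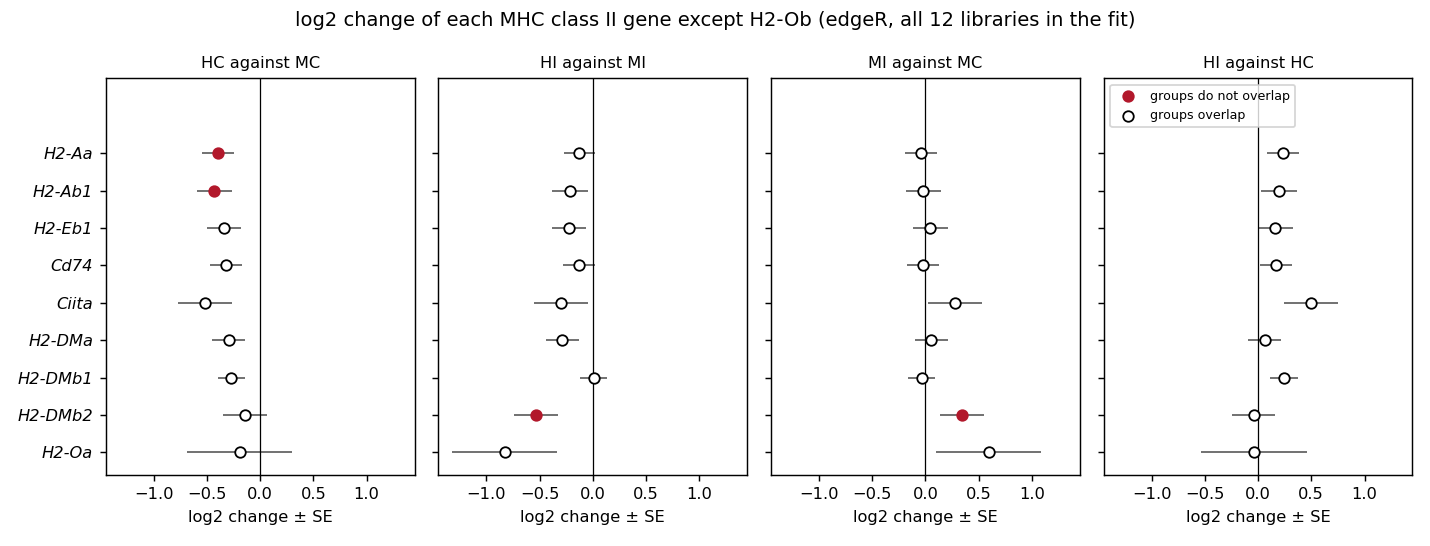
log2 change with its SE for 9 class II genes in the 4 comparisons of 2 groups, red where the groups do not overlap. H2-Ob is left out because its SE is over 1 in each comparison. In HC against MC all points lie left of 0, at -0.15 or below, and in MI against MC the points of H2-Aa, H2-Ab1, H2-Eb1 and Cd74 lie within 0.05 of 0.

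Within a tumour the main class II genes kept nearly fixed proportions. The ratio of Cd74 to the mean of H2-Aa, H2-Ab1 and H2-Eb1 in FPKM was 4.97 to 5.44 in HI, 5.11 to 5.41 in HC, 4.83 to 5.13 in MI and 4.83 to 5.20 in MC. The ratio of H2-Aa to H2-Ab1 in FPKM was 1.09 to 1.23 in HI, 1.07 to 1.20 in HC, 1.06 to 1.11 in MI and 1.06 to 1.14 in MC. The levels themselves spanned more, 1.61-fold for Cd74 and 1.69-fold for H2-Ab1 in CPM over the 12 libraries.

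Over all 12 libraries Ciita and H2-DMb2 spanned more than the main class II genes, while H2-DMb1 did not. In CPM Ciita spanned 2.72-fold, H2-DMb2 2.14-fold and H2-DMb1 1.55-fold. The wider span of H2-DMb2 rested on MI1, at 135.9 CPM. Without MI1 its levels ran from 63.4 CPM in HI1 to 106.4 CPM in HC2. Ciita was at 123.9 CPM in MI1 and at 119.6 CPM in MI2. The ratio of Ciita to H2-Aa in CPM was 0.191 to 0.233 in HI, 0.142 to 0.238 in HC, 0.209 to 0.285 in MI and 0.159 to 0.2195 in MC. The ratio of H2-DMb2 to H2-DMb1 in CPM, not scaled by length, was 1.36 to 1.86 in HI, 1.83 to 2.24 in HC, 2.16 to 2.78 in MI and 1.72 to 1.99 in MC. HI and MI did not overlap in this ratio, nor did MI and MC. The pair are near copies: 27.2% of the 50-base words and 5.74% of the 150-base words of H2-DMb1 transcripts also occur in H2-DMb2 transcripts (GENCODE M21), so the split of reads between them is uncertain. Their summed level was 125 ± 22.4 CPM in HI, 119.7 ± 29.7 CPM in HC, 159 ± 22.9 CPM in MI and 136.5 ± 7.92 CPM in MC (SD, n = 3 each).

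The H2-O genes followed another pattern, led by a single tumour. H2-Oa was at 6.74 CPM in MI1 and at 1.46 to 4.23 CPM in the other 11 libraries. H2-Ob was at 10.2 CPM in MI1 and at 0.884 CPM or less in the other 11. In HC3 a single count of H2-Ob was read.

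B cell markers moved with H2-Ob in that tumour. Ms4a1, which encodes CD20, was at 27.9 CPM in MI1 and at no more than 0.339 CPM elsewhere, with 0 counts in 3 libraries. Cr2 and Fcer2a, genes of mature B cells, were at 0 in 9 and 8 libraries and at 12.2 and 8.11 CPM in MI1.

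All 12 of the B cell markers were highest in MI1, and their summed level was 3.82 to 8.74 CPM in HI, 5.25 to 6.95 CPM in HC, 6.55 to 196.8 CPM in MI and 4.96 to 7.05 CPM in MC. Jchain, a plasma cell gene, was at 559 CPM in MI1 and at 0.982 to 17.45 CPM elsewhere. Of the other plasma cell genes listed, Mzb1 (43.7 CPM) and Derl3 (8.65 CPM) were also highest in MI1. Txndc5 was at 299.9 CPM in MI1 and reached 299.7 CPM elsewhere, Sdc1 was highest in HI1, and Tnfrsf17 was at 0 in 10 libraries. Of the 5 plasma cell genes tested, 1 was called higher in the altitude average (adjusted p = 0.0494 in edgeR), against 0.498% of all genes. The other 4 had a log2 change below 0 there. H2-Eb2, a second I-E beta gene of the same region, also stood highest in MI1, at 3.79 CPM. MI1 to MI3 (3.79, 0.971 and 1.63 CPM) were all above the MC tumours (0.504, 0.53 and 0.178 CPM). The MI against MC log2 change of H2-Eb2 was 2.39 (SE 0.71, adjusted p = 0.492 in edgeR), and without MI1 it was 1.69 (adjusted p = 0.636 in edgeR). H2-Aa was not high in MI1, at 435 CPM, the same as in MI3 and between MC1 and MC2. The part of B cells in the main class II levels was not tested.

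**Figure D5:**
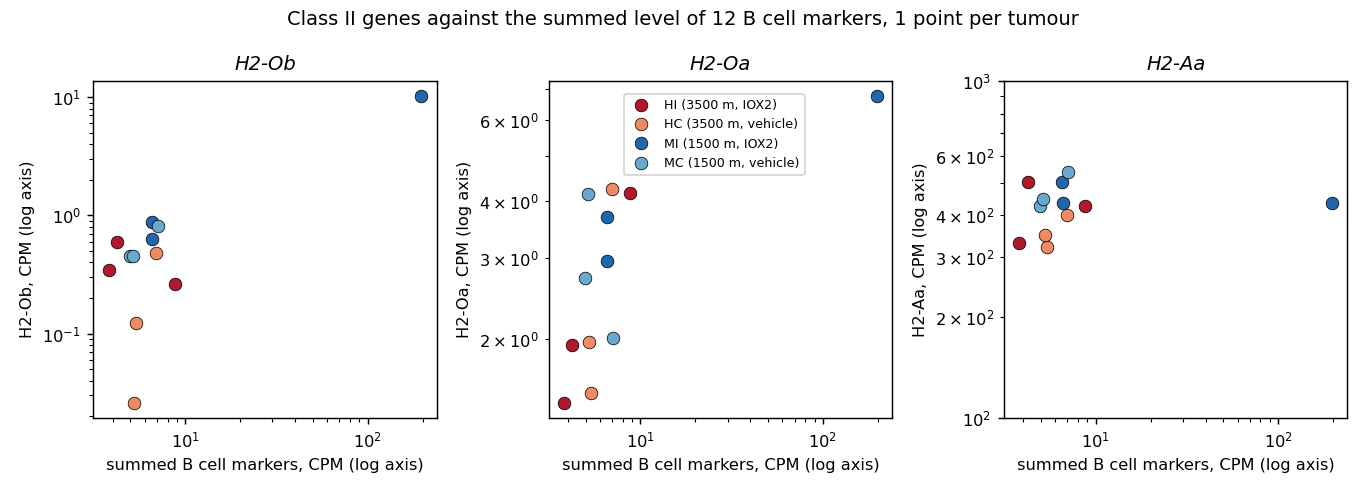
CPM of H2-Ob, H2-Oa and H2-Aa against the summed CPM of 12 B cell markers, both on log axes, 1 point per tumour, coloured by group. Library MI1 lies at 196.8 CPM of B cell markers, high for H2-Ob and H2-Oa but at 435 CPM of H2-Aa, inside the range of the other tumours.

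The factors that dock Ciita on class II promoters showed 0 called genes in any comparison. Across the comparisons edgeR called 0% to 0.498% of all genes, the share to set beside this list and those below. This list holds the RFX complex genes Rfx5, Rfxap and Rfxank, the NF-Y genes Nfya, Nfyb and Nfyc, and Creb1, and 7 of 7 were tested. Rfx5 was at 29.9 to 36.05 CPM in HI, 30.1 to 33.6 CPM in HC, 28.3 to 31.8 CPM in MI and 27.9 to 32.6 CPM in MC, so its groups overlapped. For 1 of the 7 all HC tumours were below all MC tumours, against 11.4% of all genes. The median over the list was -0.01 between HC and MC and -0.13 between HI and MI. In the altitude average Nfya (-0.15) and Rfxank (-0.19) had an unadjusted p under 0.05 and an adjusted p = 0.237 and 0.273 in edgeR.

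Of 9 genes that regulate Ciita or the life of class II at the cell surface, 0 were called. Cd83, whose protein keeps class II at the surface, had 6.37, 6.04 and 7.27 CPM in HI, 5.44, 6.11 and 4.08 CPM in HC, 15.01, 7.57 and 7.07 CPM in MI and 8.24, 7.82 and 16.4 CPM in MC. All HC tumours were below all MC tumours (log2 change -1.05, SE 0.34, adjusted p = 0.283 in edgeR), and without MC3 the log2 change was -0.62. Marchf1, a ligase gene that sends class II to degradation, was at 43.6 and 63.5 CPM in MI1 and MI3 and at 14.3 to 27.3 CPM in the other libraries. Spi1, which encodes the myeloid factor PU.1, had a log2 change of -0.43 in HC against MC (SE 0.16, adjusted p = 0.338 in edgeR).

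The interferon gamma list held 12 genes, and all 12 had a log2 change above 0 in MI against MC, with a median of 0.33. For 5 of 12 all MI tumours were above all MC tumours, against 4.75% of all genes, of which 49.2% had a log2 change below 0, and 0 of 12 were called. Ifng itself had 2.42, 2.40 and 1.63 CPM in MI, against 1.11, 1.04 and 0.967 CPM in MC. All MI tumours were above all MC tumours (log2 change 1.05, SE 0.27, adjusted p = 0.492 in edgeR). The chemokine gene Cxcl9 had a log2 change of 0.86 (SE 0.31, adjusted p = 0.492 in edgeR). Between HC and MC the list was split 6 and 6, with a median of -0.03.

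A list of endosomal and lysosomal genes had 10 tested genes and 0 called. It holds the proteases Ctss, Ctsl, Ctsb, Ctsd, Ctsh and Lgmn, the thiol reductase Ifi30, the protease inhibitor Cst3 and the lysosomal membrane proteins Lamp1 and Lamp2. Ctss, the main invariant chain protease of presenting cells, had a log2 change of -0.46 in HI against MI (SE 0.18, adjusted p = 0.295 in edgeR), and of -0.28 without MI3. Ctsl, which does this work in thymic epithelium, had a log2 change of 0.47 in HI against MI (SE 0.10, adjusted p = 0.14 in edgeR), and all HI tumours were above all MI tumours.

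Among 8 costimulatory ligand genes, Cd86 was the only called gene in the comparisons of altitude. That is 1 of 8 in the altitude average, against 0.498% of all genes. Cd86, which encodes a ligand that dendritic cells and macrophages show to T cells beside class II, fell by 0.66 on the log2 scale in the altitude average (SE 0.12, adjusted p = 0.0436 in edgeR). In HC against MC its log2 change was -0.64 and in HI against MI it was -0.69, and the groups did not overlap in either. Such a gap, with lower chamber values, was seen for 2 of the 8 genes in HC against MC, against 11.4% of all genes. In HI against MI it was seen for 4 of 8, against 6.61% of all genes. The call of Cd86 was lost when any of 9 of the 12 libraries was left out. Adjusted p-values ran from 0.0177 to 0.132 in edgeR over the 12 omissions. The call was also lost in limma on log2(FPKM + 0.1) (adjusted p = 0.0531). Cd40 had a log2 change of -0.47 in the average (SE 0.18, adjusted p = 0.214 in edgeR), and of -0.35 without MI1 (adjusted p = 0.319 in edgeR).

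Markers of dendritic cells had mostly negative changes between altitudes. Of 12 tested markers 11 had a log2 change below 0 in HC against MC and 11 in HI against MI, with medians of -0.79 and -0.69, and 0 were called. The HI against MI median includes MI1, where Flt3, Ccr7, Dpp4 and Siglech were highest, while the other listed markers were highest in other libraries. Siglech was at 10.8 CPM in MI1 and at most 1.14 CPM elsewhere, and Flt3 at 4.81 CPM and at most 2.22 CPM. Clec9a, a marker of cross-presenting dendritic cells, was at 0.157, 0.173 and 0.672 CPM in HI, 0.245, 0.178 and 0.0779 CPM in HC, 1.32, 1.14 and 0.741 CPM in MI and 0.73, 0.479 and 1.55 CPM in MC. Each chamber group was below its ambient group without overlap (altitude average -2.06, SE 0.46, adjusted p = 0.0752 in edgeR), and the value of HC3 is that of 3 counts.

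Ccr7, a receptor gene of migrating dendritic cells, had a log2 change of -1.32 in the altitude average (SE 0.31, adjusted p = 0.0826 in edgeR). It was highest in MI1, at 10.45 CPM, and at no more than 4.03 CPM elsewhere. Without MI1 the log2 change of Ccr7 was -0.95 (adjusted p = 0.117 in edgeR). Clec10a was the marker with a log2 change above 0 in both comparisons, with 28.3 CPM in HC1 (2.00 in HC against MC, SE 0.76, and 0.72 without HC1). The summed level of the 13 listed markers was 425 to 439.5 CPM in HI, 404 to 457.5 CPM in HC, 439 to 494 CPM in MI and 474 to 531 CPM in MC, of which Fscn1 alone made up 309 to 407 CPM. Cd207, a Langerhans cell marker, was at 0 in 5 libraries. The part of dendritic cells in the class II levels was not tested.

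Macrophage and monocyte markers were more abundant. Of 12 tested, 9 had a log2 change below 0 in HC against MC (median -0.27) and 10 in HI against MI (median -0.29), with 0 called. Their summed level was 1325 to 1654 CPM in HI, 1492 to 1888 CPM in HC, 1581 to 1822 CPM in MI and 1643 to 2145 CPM in MC. Csf1r, the receptor gene for macrophage growth factor, was at 202 to 249.9 CPM in HI, 178 to 252 CPM in HC, 229.8 to 244 CPM in MI and 252 to 312.5 CPM in MC. Mrc1 and Mertk, genes of resident-type macrophages, had log2 changes of 1.06 and 1.26 in HC against MC, the opposite sign to the list's median, with adjusted p = 0.231 and 0.156 in edgeR. The part of these cells in the class II levels was not tested.

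T cell markers summed to 50.3 to 88.2 CPM in HI, 46.2 to 54.95 CPM in HC, 47.3 to 129 CPM in MI and 44.1 to 56.8 CPM in MC. Of 9 tested, 6 had a log2 change below 0 in the altitude average and 3 above 0 (median -0.14), with 0 called. In HC against MC 6 of 9 were below 0 (median -0.09), and in HI against MI 7 of 9 (median -0.29). MI1, where each T cell marker measured was at its highest, is part of HI against MI and of the average. Cd4, the coreceptor that binds class II, had 1.78, 0.962 and 2.64 CPM in HI, 1.13, 2.21 and 1.87 CPM in HC, 15.2, 3.08 and 4.11 CPM in MI and 3.20, 3.56 and 5.22 CPM in MC. Every chamber tumour was below every ambient tumour, and MI1 was the highest (altitude average -1.63, SE 0.40, adjusted p = 0.0907 in edgeR, and -1.10 without MI1, adjusted p = 0.124 in edgeR). Tumour epithelial markers summed to 4161 to 4600 CPM in HI, 4420 to 4850 CPM in HC, 3737 to 4171 CPM in MI and 4220 to 4495 CPM in MC.

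The genes whose profile over the 12 libraries was most like the mean of the 10 members were ranked by Pearson correlation of log2 CPM. All of these points share their libraries, and the mean includes the high H2-O values of MI1. The first was Klk1 (r = 0.92), at 2.76 CPM or less in each group mean. Ccr7 (r = 0.92), Itgb7, an integrin gene of lymphocytes (r = 0.92), and Ccl22, a chemokine gene of mature dendritic cells (r = 0.90), were among the 10, as were Cd40 (r = 0.89), Il21r (r = 0.90), Timd4 (r = 0.89), Apol7e (r = 0.92), Alpl (r = 0.90) and Fgr (r = 0.90). With H2-Oa and H2-Ob left out of the mean, a choice made after the values were seen, the first was Slamf8 (r = 0.96), a myeloid surface receptor gene. Next came Apol7e (r = 0.94), Wdtc1 (r = 0.93), Tmem51 (r = 0.93), Mmp25 (r = 0.90) and Gsap (r = 0.90). Iqsec2 (r = 0.89), Sp110 (r = 0.88), Mcpt2 (r = 0.88) and Aqp9 (r = 0.87) completed the 10. Slamf8 averaged 11.6 CPM in HI, 10.03 CPM in HC, 15.4 CPM in MI and 14.1 CPM in MC.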

How the data were processed

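RNA was sequenced from 12 tumours, 3 in each group, and groups and replicate numbers come from the labels. The submitters' processing notes name, with no roles or order, build GRCm39, R (3.5.1), DESeq2 (1.22.2), HTSeq (0.11.2), fastp (0.20.1) and HISAT2 (2.1.0). No source used here states the annotation or the strand setting. The authors' deposited counts are whole numbers per gene, and 24312 of the 35434 genes were above 0. The authors' deposited FPKM values divide by gene length, and the length implied by each value and its count was whole within 0.01 base for 100% of values above 0. The reference carries the C57BL/6J class II haplotype while the mice are BALB/c. This holds in all groups, and its effect on levels between genes was not tested.

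The test was the quasi-likelihood method of edgeR 4.0.16 (R 4.3.3) on counts, after filterByExpr and TMM scaling, with all 12 tumours in 1 model that has a mean for each group. Adjusted p-values are Benjamini-Hochberg values over 15269 genes, called under 0.05. The SE is the size of the log2 change divided by the root of F. Levels are TMM-scaled CPM unless FPKM is named. Alternatives were DESeq2 1.42.0, its size factors, other filters, limma 3.58.1 on log2(FPKM + 0.1) and log2(FPKM + 1), the compared groups alone, a replicate block and each library left out. The scripts were tested on simulated data with 200 changed genes.

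No label says that replicate numbers pair tumours. In HC and MC, libraries of the same number nonetheless deviated together over all genes tested (correlations of 0.278, 0.153 and 0.209), and the other pairs of groups each had at least 1 correlation under 0.1. The p-values measure the spread between separate mice. The members and lists were chosen with earlier results of these data known. All 10 members are named, and genes of other lists were named by their p or non-overlap, or chosen after their values were seen. H2-Ea and Trac, looked for by name, are not analysed here. Promoter sequences come from RefSeq, where 7 members matched by symbol. The Y box search was extended to the opposite strand of the members after the first results were seen, which added 1 match. Some single genes of the other lists are not reported here.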

Additional observations from a re-analysis of the deposited data

How the results depend on the processing

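H2-Oa, alone of the members, had the other sign in HC against MC when MC2 or HC1 was left out, while H2-Aa and H2-Ab1 kept theirs there in all 20 settings. H2-DMb2 and H2-Ob kept theirs in HI against MI and in MI against MC in every setting run. The small changes of H2-Aa turned sign in 1 setting in HI against MI and in 3 in MI against MC. Members called were 0 in every comparison and setting, except 1 under DESeq2 (H2-Ob) in HI against MI and in the altitude average. The count over all genes moved more, for which the cause was not tested. DESeq2 called 314 genes in HC against MC, 381 in HI against MI, 20 in MI against MC, 19 in HI against HC, 29 for the interaction, 866 in the altitude average and 11 in the IOX2 average. No filter gave 2 in HC against MC, 16 in HI against MI and 166 in the altitude average. DESeq2 size factors gave 1 and the 1 CPM filter 2 in HI against MI. limma on log2(FPKM + 1) gave 14 in the altitude average. Fits of the compared groups alone gave 63 in HC against MC and 2 in MI against MC. The replicate block gave 13 in HC against MC, 3 in HI against HC and 155 in the altitude average, and changed no call of a member. Leaving out 1 library each gave 0 to 40 in HC against MC, 0 to 520 in HI against MI, 0 to 6 in MI against MC, 0 to 2 for the interaction and 2 to 339 in the altitude average. The highest counts came without HI1 (40), MI2 (520, 6 and 2) and HI3 (339), and the average also had 203 without MI2 and 2 without MC2 or MC3, against 76 with all libraries. The members' median ran from -0.49 to -0.26 in HC against MC and from -0.44 to -0.12 in HI against MI when 1 library was left out. Depth limits H2-Ob, with 1 to 32 counts outside MI1, and other low genes such as H2-Eb2, with 7 counts in MC3, and Clec9a.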
